A study of Mus musculus with 18 samples.

Results

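Whether the transcriptional response of mouse hepatoma cells to the dioxin TCDD (tetrachlorodibenzo-*p*-dioxin) needs the aryl hydrocarbon receptor (AHR) to bind DNA was examined in 12 of the 18 expression arrays of the series. The quantity followed was the change with TCDD in wild-type cells minus the change with TCDD in *c*35 cells, each against DMSO, and it was computed for 45037 probe sets, which are all but the 64 control probe sets among the 45101 on the array. The groups were wild-type Hepa-1c1c7 cells with DMSO, wild-type cells with TCDD, *c*35 cells with DMSO and *c*35 cells with TCDD, with 3 arrays in each. Exposure lasted 8 hr, and every group received the DMSO solvent. The labels state 5 nM TCDD for the *c*35 arrays only. For wild-type cells the dose is in the methods of the study, which treat both lines alike. Hepa-1c1c7 is an established line from a mouse liver tumor, with the strain given as C57BL/6 in the labels, and *c*35 is a mutant derivative of it. The AHR of *c*35 cells carries a missense mutation. It still binds ligand and moves to the nucleus but cannot bind DNA. Only 1 mutant line was studied, so the mutation and any other difference between the lines cannot be told apart.

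The AHR is a transcription factor of the basic helix-loop-helix and PAS family that waits in the cytosol in a complex with HSP90. Ligands such as TCDD, a persistent environmental toxicant, send it to the nucleus, where it pairs with ARNT and binds xenobiotic response elements with the core GCGTG. Its best-known targets, called the AHR gene battery, encode enzymes that oxidize and conjugate foreign compounds in liver, together with the repressors AHRR and TIPARP that limit the response.

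The deposited values are log2 signals made by robust multiarray averaging, so a difference of 1 is a doubling. Arrays of the same line correlated at 0.991 to 0.997 in wild-type and 0.996 to 0.998 in *c*35 cells, and arrays of different lines at 0.969 to 0.980. A lower signal can come from fewer cells that express a gene or from less RNA per cell, which cannot be told apart. Of 18 measured genes of hepatocyte plasma proteins, 9 lay below the median signal of the array on all arrays. *Alb* and *Afp* averaged 13.64 and 12.11 on the wild-type DMSO arrays, and *Fga* and *Apoc3* averaged 2.49 and 3.31, so the labelled liver origin showed only in part of the list. The summed signal of 9 markers of stellate cells and fibroblasts ran from 14.4 to 14.8 on the log2 scale in wild-type cells and from 14.5 to 14.6 in *c*35 cells, with list medians of 6.97 to 7.77 and 9.40 to 9.52, and that of 8 macrophage markers from 11.4 to 11.6 and from 12.5 to 12.6. None of the 31 markers of macrophages, endothelium, stellate cells and bile duct met the criteria for a different response. Of all genes 0.275% met them with a higher and 0.0055% with a lower response in wild-type cells. A count of 0 is near that share, and nothing is read from it.

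Some *c*35 arrays stood apart for the genes in question. On *c*35 DMSO replicates 1 and 2 the 107 probe sets that rose with TCDD in wild-type cells lay a median of 0.16 and 0.13 above the mean of the *c*35 TCDD arrays, and on replicate 3 a median of 0.0049. The shares above that mean were 73.8%, 68.2% and 52.3%. On the *c*35 TCDD arrays the same medians were -0.05, 0.01 and 0.03, and over all probe sets the medians of these arrays stayed between -0.0082 and 0.0055. The third *c*35 array exposed to benzo[*a*]pyrene (BaP), another AHR ligand, had a median of 0.17, while the other two had 0.02 and -0.11. The plot of each *c*35 array against the TCDD mean shows these values. A set of 31 probe sets over 16-fold higher in wild-type TCDD than in *c*35 TCDD cells had a median log2 signal of 4.06 on *c*35 DMSO replicates 1 and 2, 3.97 on replicate 3, 3.97 to 4.08 on the *c*35 TCDD arrays and 8.90 to 9.55 on wild-type arrays. Set against the *c*35 TCDD mean probe set by probe set, their median was 0.11 and 0.10 on *c*35 DMSO replicates 1 and 2, 0.0070 on replicate 3 and -0.0047, -0.0039 and 0.08 on the TCDD arrays. On *c*35 BaP replicates 1, 2 and 3 that median was 0.13, 0.04 and 0.03. Whether wild-type RNA on the *c*35 arrays had a part in the results was not tested. The high *c*35 DMSO arrays lower the *c*35 response to TCDD and so widen the difference between the lines. The count of genes and the values of the genes named below were therefore also computed without *c*35 DMSO replicates 1 and 2.

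**Figure D1:**
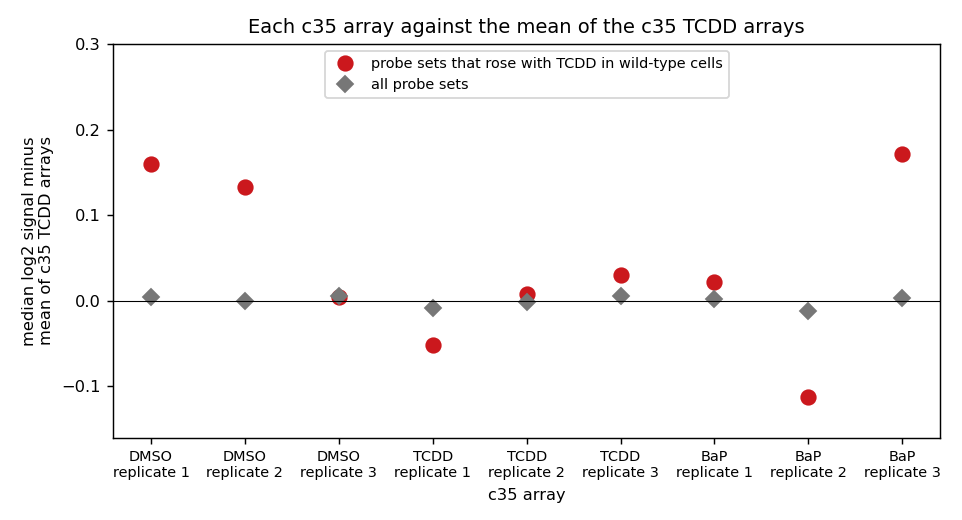
Median log2 signal of each *c*35 array minus the mean of the 3 *c*35 TCDD arrays (y axis), for the 107 probe sets that rose with TCDD in wild-type cells (circles) and for all 45037 probe sets (diamonds). DMSO replicates 1 and 2 and BaP replicate 3 lie at 0.16, 0.13 and 0.17 for the former, while the diamonds stay between -0.012 and 0.0055.

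The response to TCDD differed between the lines at 79 probe sets (0.175% of those tested), with an adjusted p below 0.05 from limma and a difference above 1.5-fold. The response was the higher one in wild-type cells at 76 of them and the lower one at 3. They name 61 genes (0.335% of 18193), of which 59 responded higher (0.324%) and 2 lower (0.011%). With no adjustment, 3114 probe sets (6.91%) had p under 0.05. Over the 59 genes the difference ran from 0.61 to 4.63 on the log2 scale with a median of 0.89, where the median of all genes was 0.0036. Without *c*35 DMSO replicates 1 and 2 together, which leaves 1 array in that group and assumes it varies like the others, the difference passed for 17 genes, 16 higher and 1 lower, of which 16 were among the 61. These were 13 genes that passed on the same probe set, namely *Tiparp*, *Tnfaip2*, *Ogn*, *Aldh3a1*, *Nqo1*, *Cyp2s1*, *Tmem71*, *Klf9*, *Tbc1d16*, *Osbpl2*, *Sipa1l2*, *Larp1b* and *Cavin2*, and *Adh7*, *Hspa4l* and *Ndrg1*, which passed on another of their probe sets. In that fit all 59 genes kept a positive difference, with a median of 0.85. It holds the same wild-type arrays that helped choose these genes, so nothing is read from the signs.

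Both arms of the difference went into that list. The change with TCDD in wild-type cells ran from 0.39 to 3.28 over the 59 genes, with a median of 0.75 against 0.0063 for all genes. The *c*35 change ran from -1.35 to 0.08, with a median of -0.18 against 0.0036 for all genes, and it was below 0 for 57 of the 59. The negative *c*35 change made up a median of 19% of a gene's difference, and up to 45.9%. Leaving out *c*35 DMSO replicates 1 and 2 brought the median *c*35 change to -0.05, with 35 of the 59 below 0. Taken alone, the wild-type arm called 89 genes (0.489%), of which 73 rose (0.401%) and 16 fell (0.0879%). In wild-type cells 46 of the 59 genes also rose by the same criteria on the same probe set, and the other 13 had wild-type changes of 0.39 to 0.56, short of 1.5-fold. Limma called 0 genes in *c*35 cells. The lowest adjusted p was 0.962, and 2244 probe sets (4.98%) had an unadjusted p under 0.05. Without *c*35 DMSO replicates 1 and 2, 1 gene was called. The arms share their arrays with the difference, so their values are given side by side and not as separate evidence.

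**Figure D2:**
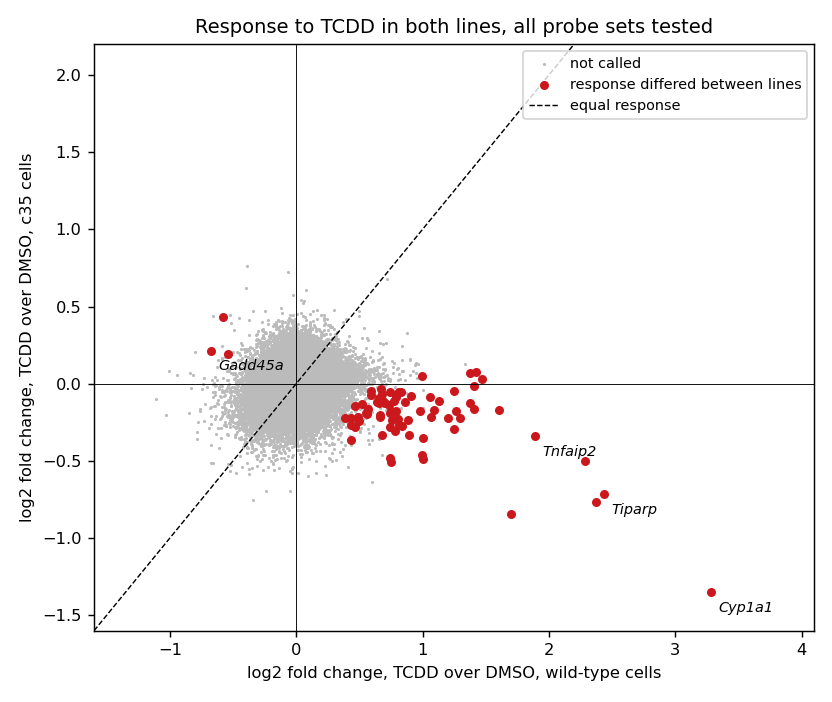
Log2 fold change of TCDD over DMSO in wild-type cells (x axis) and in *c*35 cells (y axis), 1 point per probe set, where the 79 probe sets whose response differed are drawn large and the dashed line marks equal responses. The large points on the right run from 0.39 to 3.28 in wild-type cells, with *Cyp1a1* at 3.28 and -1.35, and *Gadd45a* lies on the left at -0.67 and 0.21.

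Of 9 measured members of the battery, 7 had the higher response in wild-type cells and 0 had the lower one, where 0.275% and 0.0055% of all genes did by the same probe set rule. All 7 are also among the genes the study names from these arrays, so their count and direction are not independent evidence. Without *c*35 DMSO replicates 1 and 2 the call held for 4 of the 9, *Tiparp*, *Nqo1*, *Aldh3a1* and *Cyp2s1*. The same 7 rose with TCDD in wild-type cells and 0 fell, against 0.341% and 0.0385% of all genes. The median difference of the 9 measured members was 1.42, against 0.0036 for all genes. The battery list also holds *Ugt1a6a* and *Gsta1*, genes of conjugating enzymes, which were not measured. *Cyp1a1* encodes the P450 enzyme most strongly tied to the receptor. Its log2 signal on the 3 wild-type DMSO arrays was 9.61, 9.78 and 9.81, and 13.06, 12.92 and 13.07 with TCDD. The *c*35 arrays had 8.32, 8.34 and 4.87 with DMSO and 5.39, 5.97 and 6.11 with TCDD. The wild-type groups lay far apart, while the *c*35 TCDD arrays fell inside the range of the *c*35 DMSO arrays. The difference was 4.63 (standard error 0.95, adjusted p = 0.0490), and it was 2.33 without *c*35 DMSO replicates 1 and 2. In the latter fit the *c*35 change turned from -1.35 to 0.96, which rests on the low signal of 1 DMSO array. The *c*35 BaP arrays, at 6.23, 5.25 and 8.32, also entered the estimate of the spread of *Cyp1a1*. The call of *Cyp1a1* was lost in 16 of the other fits that were tried, among them all that left out a single array except *c*35 DMSO replicate 3.

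*Tiparp* encodes an enzyme that ADP-ribosylates the AHR and dampens its activity. Its signal was 9.04, 9.02 and 9.01 with DMSO and 11.48, 11.40 and 11.50 with TCDD in wild-type cells. On the *c*35 arrays it was 10.36, 10.30 and 9.34 with DMSO and 9.38, 9.24 and 9.25 with TCDD. All *c*35 arrays lay above all wild-type DMSO arrays, and the *c*35 TCDD arrays lay on both sides of *c*35 DMSO replicate 3 and well below the other two. The difference was 3.15 (standard error 0.34, adjusted p = 6.18e-05), and 2.49 (adjusted p = 0.00811) without *c*35 DMSO replicates 1 and 2. All 3 probe sets of *Tiparp* passed.

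*Nqo1* encodes a quinone reductase that both the AHR and NRF2 control. In wild-type cells its signal went from 9.17, 9.24 and 9.23 with DMSO to 10.51, 10.71 and 10.69 with TCDD. The *c*35 signals were 8.97, 8.91 and 8.68 with DMSO and 8.70, 9.07 and 9.01 with TCDD. The *c*35 groups overlapped and the wild-type groups did not, and the difference was 1.35 (standard error 0.14, adjusted p = 5.21e-05). *Aldh3a1*, an aldehyde dehydrogenase gene, had a difference of 1.42 (standard error 0.14, adjusted p = 5.02e-05), with 7.48 to 7.54 against 8.84 to 8.98 in wild-type cells and 8.36 to 8.67 against 8.28 to 8.76 in *c*35 cells. *Cyp2s1*, which encodes a P450 found in many tissues outside the liver, had a difference of 1.30 (standard error 0.12, adjusted p = 7.05e-06). Its signal went from 7.88 to 7.99 with DMSO to 9.13 to 9.34 with TCDD in wild-type cells, and it was 8.14 to 8.29 and 8.01 to 8.30 in *c*35 cells. For these 3 genes the *c*35 change was between -0.05 and 0.08, so nearly the whole difference was the wild-type rise. All 3 kept their calls without *c*35 DMSO replicates 1 and 2, at 1.17 for *Nqo1*, 1.23 for *Aldh3a1* and 1.21 for *Cyp2s1*.

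*Cyp1b1*, a P450 gene of estrogen and carcinogen oxidation, had signals of 6.70, 6.36 and 6.47 with DMSO and 7.51, 7.65 and 7.38 with TCDD in wild-type cells. The *c*35 arrays gave 6.09, 5.86 and 5.02 with DMSO and 4.88, 5.18 and 5.45 with TCDD. The 2 high DMSO arrays were the ones that were high for *Cyp1a1*, and the difference of 1.49 (standard error 0.30, adjusted p = 0.0419) came to 0.85 (adjusted p = 0.687) without them. Over the mean of the probe sets of *Cyp1b1* it was 0.78 (adjusted p = 0.18). *Xdh*, which encodes the xanthine dehydrogenase of purine breakdown, had a difference of 1.54 (standard error 0.22, adjusted p = 0.00202), and 1.07 (adjusted p = 0.14) without those arrays. Its wild-type signal went from 7.76 to 7.89 with DMSO to 9.003 to 9.126 with TCDD, and the *c*35 arrays were at 8.90 to 9.61 with DMSO and 8.87 to 9.20 with TCDD, all above the wild-type DMSO arrays.

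The 2 battery members that were not called were *Cyp1a2*, the P450 gene next to *Cyp1a1* that is mostly active in adult liver, and *Ahrr*, the repressor of the receptor. *Cyp1a2* lay between 4.96 and 5.51 and *Ahrr* between 2.61 and 3.12 over the 12 arrays. Their differences were -0.04 (95% interval -0.42 to 0.34) and -0.12 (-0.47 to 0.22), with adjusted p = 0.985 and 0.924 from limma. A difference in signal as large as that of the other members lies outside both intervals. Both genes lay below the array medians of 5.62 to 5.69, *Ahrr* far below. A signal that dim may be mostly background, so the intervals describe the signal and do not exclude a rise of the transcript. Of 15 measured genes of the AHR complex, its partners and its coregulators, 0 were called, and their median difference was 0.16. *Ahr* itself was at 10.51 to 10.57 in wild-type and 9.41 to 9.60 in *c*35 cells over both treatments, with a difference in response of 0.09 (-0.13 to 0.32). Its level does not test the label, since a missense mutation need not alter the RNA. *Arnt*, the partner of the receptor, had a difference of 0.25 (-0.03 to 0.52).

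**Figure D3:**
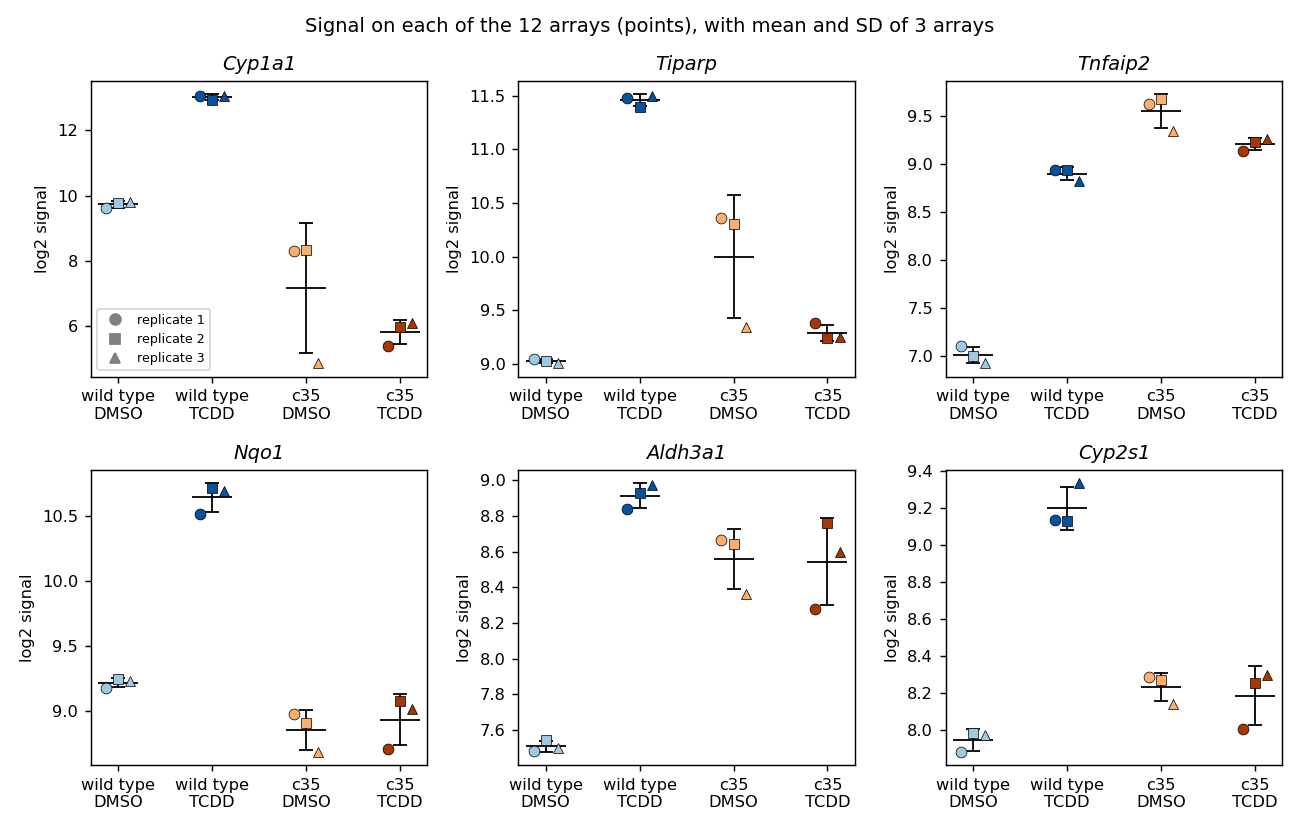
Log2 signal (y axis) of *Cyp1a1*, *Tiparp*, *Tnfaip2*, *Nqo1*, *Aldh3a1* and *Cyp2s1* on each of the 12 arrays by group (x axis), where symbols are replicates with horizontal bars at the mean of 3 arrays and error bars of 1 SD. The wild-type TCDD points lie above the wild-type DMSO points in all 6 panels, and *c*35 DMSO replicate 3 lies below replicates 1 and 2, for *Cyp1a1* at 4.87 against 8.32 and 8.34.

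*Tnfaip2*, which encodes an exocyst-related protein induced by tumor necrosis factor, had the lowest adjusted p of all probe sets (difference 2.23, standard error 0.13, adjusted p = 1.07e-08). Its wild-type signal was 7.10, 7.00 and 6.93 with DMSO and 8.94, 8.93 and 8.82 with TCDD. On the *c*35 arrays it was 9.62, 9.67 and 9.35 with DMSO and 9.14, 9.23 and 9.26 with TCDD, so every *c*35 array, treated or not, lay above every wild-type array. The difference was 2.02 (adjusted p = 3.98e-06) without *c*35 DMSO replicates 1 and 2. In the probe sets of the gene, 2 of 3 passed, and the mean of all 3 gave 1.29 (adjusted p = 2.52e-06).

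The promoters of 4 of these genes are shown, chosen for holding the receptor's core motif before the start site. The windows of *Nqo1* and *Cyp2s1* do not hold it. The 250 bases before the start were taken from RefSeq (GRCm38.p6), 5′ to 3′ on the strand of the gene, with GCGTG or its reverse complement in capitals. The windows are chr9:57697363-57697612 on the plus strand for *Cyp1a1*, chr3:65528197-65528446 on the plus strand for *Tiparp*, chr12:111442411-111442660 on the plus strand for *Tnfaip2* and chr17:79715062-79715311 on the minus strand for *Cyp1b1*.
Cyp1a1: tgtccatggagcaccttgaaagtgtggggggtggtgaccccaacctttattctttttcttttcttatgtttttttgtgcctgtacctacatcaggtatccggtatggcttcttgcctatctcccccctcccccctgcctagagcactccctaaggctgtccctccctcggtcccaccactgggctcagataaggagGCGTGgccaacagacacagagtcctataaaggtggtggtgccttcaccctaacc
Tiparp: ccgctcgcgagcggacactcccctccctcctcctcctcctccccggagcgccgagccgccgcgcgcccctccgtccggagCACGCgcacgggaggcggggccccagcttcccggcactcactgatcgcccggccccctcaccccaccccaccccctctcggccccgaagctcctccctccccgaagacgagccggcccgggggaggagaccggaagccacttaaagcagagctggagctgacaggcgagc
Tnfaip2: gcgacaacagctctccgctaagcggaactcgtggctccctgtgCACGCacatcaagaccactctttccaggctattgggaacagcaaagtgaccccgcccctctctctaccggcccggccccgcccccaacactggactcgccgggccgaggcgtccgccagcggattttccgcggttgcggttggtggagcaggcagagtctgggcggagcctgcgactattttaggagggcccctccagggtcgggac
Cyp1b1: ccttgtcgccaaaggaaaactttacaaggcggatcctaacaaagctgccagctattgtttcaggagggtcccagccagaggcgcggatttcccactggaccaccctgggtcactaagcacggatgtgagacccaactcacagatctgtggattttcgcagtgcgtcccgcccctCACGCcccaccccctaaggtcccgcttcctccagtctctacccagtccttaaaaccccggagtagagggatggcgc
The motif begins 54 bases before the start at *Cyp1a1*, 170 at *Tiparp*, 207 at *Tnfaip2* and 76 at *Cyp1b1*. In windows of 300 bases, from 250 before to 50 after the start, a search for GCGTG on both strands found it in 32 of the 48 genes with a window among the 59 (66.7%). It was found in 6877 of 14368 genes of the array with a window (47.9%) and in 32.4% of all windows in the table. The longer form TNGCGTG, which contains the former, was in 6 of the 48 (12.5%) and in 8.02% of the array's genes. These counts describe letters in the windows, not bound sites, and the set was not tested.

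Outside the battery, the genes named first had the largest differences when each gene took the value of its brightest called probe set. *Ndrg1*, a stress-responsive gene, stood at 0.87 by that choice (adjusted p = 0.00695) and at 1.28 (adjusted p = 1.12e-04) at another called probe set. *Adh7*, an alcohol and retinol dehydrogenase gene, had wild-type signals of 7.45, 7.70 and 7.76 with DMSO and 8.93, 8.95 and 9.24 with TCDD, and *c*35 signals of 8.65, 8.60 and 8.12 with DMSO and 8.18, 8.29 and 8.42 with TCDD. Its difference was 1.57 (standard error 0.21, adjusted p = 8.47e-04), and 1.23 (adjusted p = 0.106) without *c*35 DMSO replicates 1 and 2, where its other probe set, at 1.77 on all arrays, still passed. It was the 1 called gene of 38 measured alcohol, aldehyde and retinoid dehydrogenases. *Adh1*, the class I alcohol dehydrogenase gene, had a difference of 0.71 (0.38 to 1.03, adjusted p = 0.0712). *Hpgd*, whose enzyme inactivates prostaglandins, had a difference of 1.31 (standard error 0.22, adjusted p = 0.00811) and was the 1 called gene of 17 in prostaglandin synthesis and breakdown. Its wild-type signal was 3.42, 4.07 and 3.90 with DMSO and 5.20, 5.29 and 5.02 with TCDD. All *c*35 DMSO and TCDD arrays were higher, at 6.58 to 6.90. Without *c*35 DMSO replicates 1 and 2 its difference was 1.503 (adjusted p = 0.0793), and the mean of its probe sets gave 0.77 (adjusted p = 0.0776).

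*Bmf*, a proapoptotic gene of the BCL2 family, went from 4.95, 4.87 and 4.74 to 6.06, 6.28 and 6.09 in wild-type cells and was 4.67, 4.98 and 4.21 with DMSO and 4.26, 4.38 and 4.55 with TCDD in *c*35 cells. Its difference was 1.52 (standard error 0.22, adjusted p = 0.00202), the 1 call among 15 members of the family, and it was 1.11 (adjusted p = 0.123) without *c*35 DMSO replicates 1 and 2. It rests on 1 of 3 probe sets, since the others of *Bmf* had 0.18 and -0.17, and the mean of all 3 was 0.51 (adjusted p = 0.0836). With DMSO and in *c*35 cells *Bmf* lay below the array medians, where a signal may be partly background. *Bcl2l11*, which encodes the related BIM, had 0.54 (adjusted p = 0.467). *Ogn* encodes osteoglycin, a small proteoglycan of the extracellular matrix. Its wild-type signal was 6.71 to 6.97 with DMSO and 7.67 to 8.09 with TCDD. In *c*35 cells it was 3.29, 3.38 and 3.63 with DMSO and 3.08, 2.97 and 2.87 with TCDD. Every *c*35 array lay far below every wild-type array. Those *c*35 signals also lay far below the array medians of 5.62 to 5.69 and may be mostly background. The *c*35 change of -0.46 describes that signal and may not describe the transcript. The difference was 1.46 (standard error 0.17, adjusted p = 1.38e-04), and 1.65 (adjusted p = 0.00244) without the 2 arrays, which were not high for this gene.

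*Selenbp1*, a selenium-binding protein gene, differed by 1.497 (adjusted p = 0.00231). Its signal was 3.76 to 4.44 on the wild-type DMSO, *c*35 DMSO and *c*35 TCDD arrays. That is below the array medians and may be mostly background. *Arrdc3*, an arrestin-domain gene of receptor trafficking, differed by 1.42 (adjusted p = 0.0299). *Pfkfb3*, which encodes the enzyme that makes the glycolytic activator fructose 2,6-bisphosphate, differed by 1.26 (adjusted p = 0.00977), of which a wild-type change of 0.75 and a *c*35 change of -0.51. The other probe set of *Pfkfb3* had -0.23 (adjusted p = 0.854), and the mean of both 0.52 (adjusted p = 0.238). For all 59 genes the wild-type TCDD arrays lay above every wild-type DMSO array, as for 10.4% of all genes. The same arrays helped choose the 59 genes, so nothing is read from that. *Selenbp1*, *Arrdc3* and *Pfkfb3* lost their calls without *c*35 DMSO replicates 1 and 2, with adjusted p = 0.0887, 0.637 and 0.446. The clock-output transcription factor gene *Hlf* was the 1 call among 16 circadian genes (1.22, adjusted p = 0.00805), with wild-type signals of 6.57 to 7.11 and 7.42 to 7.92 and *c*35 signals of 5.63 to 5.77 and 4.94 to 5.47. The mean of its probe sets gave 0.73 (adjusted p = 0.0124), and without *c*35 DMSO replicates 1 and 2 *Hlf* had 1.16 (adjusted p = 0.295).

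Among 27 genes of heat shock and the unfolded protein response, *Hspa4l* and *Chac1* were called and the median difference was 0.03. By the same probe set rule 0.275% of all genes were called higher and 0.0055% lower, and no list was tested as a set. *Hspa4l*, a gene of the HSP110 family, differed by 1.03 (standard error 0.15, adjusted p = 0.00145), and all 5 of its probe sets passed. Its signal went from 9.70 to 9.79 with DMSO to 10.47 to 10.60 with TCDD in wild-type cells, and was 10.01 to 10.19 and 9.85 to 9.95 in *c*35 cells. *Chac1*, which encodes a glutathione-degrading enzyme, differed by 0.74 (adjusted p = 0.00376), with all *c*35 arrays at 9.75 or above against 7.47 to 7.51 on the wild-type TCDD arrays. *Ccng2*, a cyclin gene of growth arrest, differed by 0.88 (adjusted p = 0.0299), 1 of 2 calls among 26 genes of cell cycle arrest. The chemokine gene *Ccl20* differed by 0.75 (adjusted p = 0.013) and was the 1 call among 37 growth factor and cytokine genes. *Ccng2* lost its call in most of the fits that left out 1 array, and with the mean of its probe sets (0.60, adjusted p = 0.158). Without *c*35 DMSO replicates 1 and 2 none of the probe sets described here for these genes passed, with *Hspa4l* at 0.91 (adjusted p = 0.14), *Chac1* at 0.61 (0.306), *Ccng2* at 0.62 (0.657) and *Ccl20* at 0.67 (0.422), and *Hspa4l* passed on another of its probe sets.

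The genes that follow lie outside the rule for named genes and were chosen after their values were seen. The transcription factor gene *Klf9*, a Krüppel-like factor induced by glucocorticoid, differed by 0.99 (adjusted p = 5.21e-05, 3 of 7 probe sets). It had wild-type signals of 10.68, 10.78 and 10.86 with DMSO and 11.56, 11.56 and 11.48 with TCDD, and *c*35 signals of 10.79, 10.72 and 10.57 with DMSO and 10.44, 10.45 and 10.49 with TCDD. It kept its call without *c*35 DMSO replicates 1 and 2 (0.87, adjusted p = 0.00811). Differences were 1.01 for the factor gene *Creb5*, 0.93 for the fatty acid sensor *Ppard* and 0.64 for the small MAF factor *Maff*. They were 0.70 for the hepatocyte growth factor receptor *Met*, 0.88 for the protein kinase C gene *Prkca* and 0.61 for the MAP kinase phosphatase *Dusp16*. The RNA sensor *Ddx58* had 0.89, the ISG15 protease *Usp18* 0.66, the mTOR inhibitor *Ddit4* 0.70 and the pyroptosis gene *Gsdmd* 0.79. These 10 genes from *Creb5* to *Gsdmd* lost their calls without *c*35 DMSO replicates 1 and 2, with adjusted p from 0.0743 (*Ppard*) to 0.584 (*Met*). *Cavin2*, a gene of caveolae, went from 10.81 to 10.92 with DMSO to 11.45 to 11.54 with TCDD in wild-type cells and lay between 11.06 and 11.28 on all *c*35 arrays. Its difference was 0.75 (standard error 0.08, adjusted p = 6.14e-05), and 0.79 (adjusted p = 0.00487) without the 2 arrays. *Osbpl2*, an oxysterol-binding protein gene, differed by 0.88 (adjusted p = 8.54e-05) and also kept its call.

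The 2 genes with a lower response in wild-type cells were *Gadd45a*, a growth arrest and DNA damage gene, and *Alad*, which encodes the heme synthesis enzyme after ALA synthase. *Gadd45a* was at 7.93, 7.99 and 8.06 with DMSO and 7.38, 7.26 and 7.31 with TCDD in wild-type cells. In *c*35 cells it was at 8.07, 8.07 and 8.44 with DMSO and 8.41, 8.43 and 8.38 with TCDD, where the 2 lower DMSO arrays were again replicates 1 and 2. The difference was -0.89 (standard error 0.13, adjusted p = 0.00202), and -0.64 (adjusted p = 0.177) without them. *Gadd45a* was the 1 call among 23 measured p53 targets, whose median difference was 0.16, and the cell cycle inhibitor *Cdkn1a* had 0.25 (adjusted p = 0.442). *Alad* differed by -0.73 (adjusted p = 0.00785) at its called probe set, and by -0.57 (adjusted p = 0.425) without *c*35 DMSO replicates 1 and 2. At its brighter probe set the difference was -0.42 (adjusted p = 0.323). *Cpox*, which acts later in the same pathway of heme synthesis, differed by 0.97 (adjusted p = 8.83e-04), and by 0.86 (adjusted p = 0.106) without the 2 arrays.

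**Figure D4:**
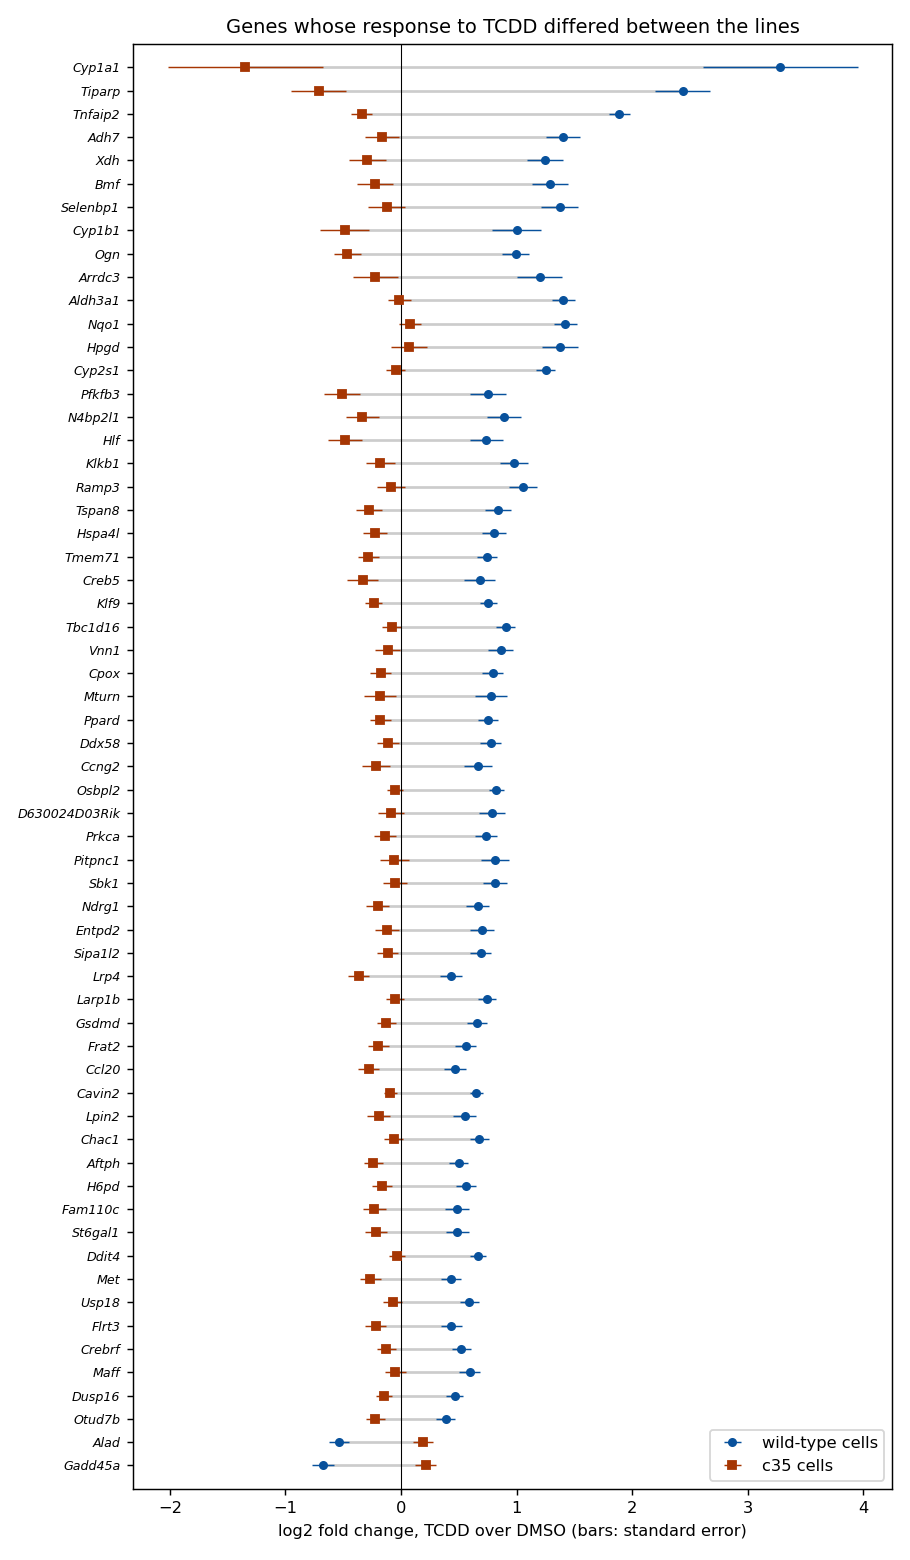
Log2 fold change of TCDD over DMSO (x axis) of the 61 genes in wild-type cells (circles) and in *c*35 cells (squares), where bars are standard errors from limma and genes are ordered by their difference. The circles of the upper 59 genes lie right of 0, from 0.39 to 3.28, and 57 of their squares lie left of 0, while *Alad* and *Gadd45a* at the bottom have circles at -0.54 and -0.67.

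The untreated level of the 59 genes differed between the lines in both directions. All *c*35 DMSO arrays lay above all wild-type DMSO arrays for 26 genes (44.1%, against 24.8% of all genes) and below them for 24 (40.7%, against 22.6%). For 9 genes (15.3%, against 25% of all genes) the *c*35 DMSO arrays lay above even the wild-type TCDD arrays. These were *Tnfaip2*, *Hpgd*, *Ndrg1*, *Entpd2*, *Gsdmd*, *Frat2*, *Chac1*, *Maff* and the unnamed clone *D630024D03Rik*. The genes that lay lower in untreated *c*35 cells included *Cyp1a1*, *Cyp1b1*, *Nqo1*, *Ogn* and *Vnn1*, the last a pantetheinase gene at 3.43 to 3.76 in *c*35 and 6.34 to 6.39 in wild-type cells with DMSO. Whether the level at the start bore on the size of the response was not tested. Both *c*35 DMSO replicates 1 and 2 lay above replicate 3 for 45 of the 59 genes (76.3%, against 36.3% of all genes), and above all *c*35 TCDD arrays for 44 of the 59 genes (74.6%, against 16.9% of all genes). The 15 genes where they were not include *Nqo1*, *Aldh3a1*, *Cyp2s1*, *Cavin2*, *Usp18* and *Maff*. All 3 *c*35 DMSO arrays lay above all *c*35 TCDD arrays for 16 (27.1%, against 6.53%), *Ogn*, *Hlf* and *Klf9* among them. The same contrast chose the genes, so nothing is read from these shares.

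The other functional lists are given for their values. By the same probe set rule 0.275% of all genes were called higher and 0.0055% lower, so counts of 0 or 1 in lists of this size are near that background, and nothing is read from them. Of 35 measured phase I enzymes outside the battery and 34 conjugating enzymes, 0 were called, with median differences of -0.12 and 0.03. *Mgst2*, a microsomal glutathione transferase gene, had a difference of 0.56 (0.03 to 1.08, adjusted p = 0.681), and its wild-type DMSO arrays were spread over 10.28, 11.36 and 11.26. Of 20 antioxidant genes of NRF2, *Nqo1* alone was called, and the median was 0.13. *Gclc*, *Gclm* and *Hmox1*, which serve glutathione synthesis and heme breakdown, had differences of 0.24, 0.18 and 0.24 with adjusted p from 0.818 to 0.844. Of 24 immediate early factors 0 were called. The median of that list, 0.26, lay above that of all genes, and *Ier3* was nearest to a call (0.89, adjusted p = 0.0631). The lists of DNA replication and mitosis (39 genes, median -0.04), lipid synthesis and oxidation (30, -0.0045), hepatocyte plasma proteins (18, 0.0034) and liver transcription factors (18, -0.06) had 0 calls each. *Vegfc*, which drives the growth of lymphatic vessels, differed by -0.54 (-0.76 to -0.33, adjusted p = 0.0246), which is under 1.5-fold and was not counted. Its wild-type arrays were at 9.75 to 9.81 with DMSO and 9.04 to 9.32 with TCDD, and its *c*35 arrays at 8.87 to 9.03 and 8.80 to 8.96. Of the 13 genes the study names from these arrays 10 responded higher, and 5 did without *c*35 DMSO replicates 1 and 2, but they were chosen on these arrays and their direction is not independent evidence.

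**Figure D5:**
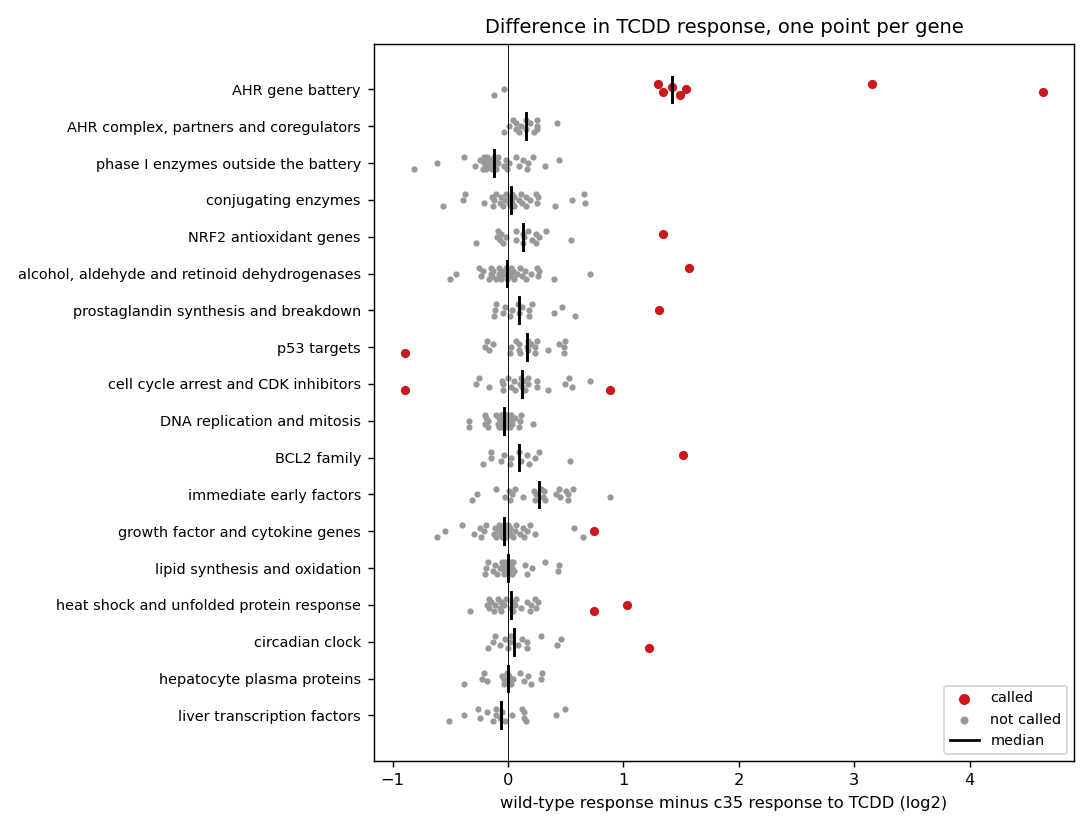
Difference in TCDD response, wild-type minus *c*35 (x axis, log2), of the measured genes of 18 functional lists (y axis), 1 point per gene, with the list median as a bar. The battery has 7 called points (large) from 1.30 to 4.63 and 2 near 0, while the medians of the other lists lie between -0.12 and 0.26.

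Of the 61 genes, 38 have several probe sets, and for 31 of these all probe sets had a difference of the same sign. The 7 others were *Bmf*, *Pfkfb3*, *Creb5*, *Klf9*, *Pitpnc1*, *Larp1b* and *Dusp16*. In 10 genes the probe set with the highest mean signal was not the one called. These were *Selenbp1*, *Ogn*, *N4bp2l1*, *Tspan8*, *Klf9*, *Vnn1*, *Cpox*, *Pitpnc1*, *Otud7b* and *Alad*. At *Selenbp1* the brighter probe set had a difference of 0.59 (adjusted p = 0.476) and at *Ogn* of 1.21 (adjusted p = 0.0733). A further 5 called probe sets carry no gene symbol. The largest of them, 1419149_at, had wild-type signals of 10.23, 10.99 and 10.89 with DMSO and 12.45, 12.38 and 12.39 with TCDD, and *c*35 signals of 12.16, 12.17 and 10.59 with DMSO and 10.53, 10.95 and 10.92 with TCDD. Its *c*35 DMSO arrays split as those of *Cyp1a1* did, with a difference of 2.54 (adjusted p = 0.0395). At 1441793_at the *c*35 arrays did not split, with 7.09 to 7.26 with DMSO and 7.11 to 7.29 with TCDD, and the difference was 1.44 (adjusted p = 9.12e-07). At 1447024_at, the third probe set with a lower response in wild-type cells, the difference was -1.01 (adjusted p = 0.0351).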

How the data were processed

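RNA was hybridized to Affymetrix mouse genome arrays. The authors deposited log2 signals which, per the submitters' processing notes, were made by robust multiarray averaging (RMA), with a version not given in the sources used here, and these were used with no further normalization. RMA equalizes the distribution of signals between arrays. Of 45037 probe sets tested, 34945 had 1 gene symbol, 932 had several and 9160 had none, by the platform annotation, and only those with 1 symbol name a gene. Probe sets were modelled with limma (version 3.58.1, under R 4.3.3 and the package data.table, version 1.17.8), using all 18 arrays and 1 mean for each of 6 groups. The prior variance of eBayes followed the signal intensity, and Benjamini-Hochberg adjustment covered every probe set tested. Residual degrees of freedom were 12. A call needed both an adjusted p below 0.05 and more than a 1.5-fold change, after the methods of the study. The design text describes the replicates as biological. No arrays held identical values, and the number of arrays limits the precision.

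Groups came from the array titles. The genes named are the 15 with the largest positive and up to 10 with the largest negative difference, each by its brightest called probe set, passing over unnamed clones, the AHR gene battery, *Ahr* and *Arnt*, the genes the study names from these arrays, and called members of 23 lists (510 genes, 465 measured). A list value is that of the probe set with the highest mean. The comparison, its members and the lists were chosen with earlier results of these data known. Lists were described by counts and medians with no test.

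The alternatives were no intensity trend, array weights, quantile normalization, median centring and no probe sets below the median signal. Others were the average over a gene's probe sets, no minimum change, a test against 1.5-fold and the *Actb* 3′ minus 5′ signal as a covariate. A block for the replicate number and the 12 arrays alone were also tried. Each of the 12 DMSO and TCDD arrays was left out in turn, and the BaP arrays were not left out singly. Leaving out *c*35 DMSO replicates 1 and 2 together, and calling the *c*35 response with an adjusted p below 0.1, were chosen after seeing the data. The fit was also run on simulated data, with results not reported here, and nothing is read from that run. Promoter windows of 300 bases are those of RefSeq, searched in Python 3.11.15, and figures were drawn with matplotlib 3.10.9.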

Additional observations from a re-analysis of the deposited data

Results flagged for a closer look

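The 61 genes whose response to TCDD differed between wild-type and *c*35 cells are listed here because the difference between the lines was itself tested, and the test passed for them in limma. The named ones, with their difference in log2 units, were *Cyp1a1* (4.63), *Tiparp* (3.15), *Tnfaip2* (2.23), *Adh7* (1.57), *Xdh* (1.54), *Bmf* (1.52), *Selenbp1* (1.5), *Cyp1b1* (1.49), *Ogn* (1.46), *Arrdc3* (1.42), *Aldh3a1* (1.42), *Nqo1* (1.35), *Hpgd* (1.31), *Cyp2s1* (1.30), *Pfkfb3* (1.26), *Hlf* (1.22), *Hspa4l* (1.03), *Ccng2* (0.88), *Ccl20* (0.75), *Chac1* (0.74), *Alad* (-0.73) and *Gadd45a* (-0.89).

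The BaP arrays took no part in the comparison beyond the estimate of the spread. For 8 of the 9 measured genes of the AHR gene battery all wild-type BaP arrays lay above all wild-type DMSO arrays, and for 0 of the 9 did all *c*35 BaP arrays lie above all *c*35 DMSO arrays. *Ahrr* was among the 8 by a narrow margin at dim signal, 2.83 on the lowest BaP and 2.81 on the highest DMSO array. *c*35 DMSO replicates 1 and 2 were high for *Cyp1a1* (8.32 and 8.34) and *Tiparp* (10.36 and 10.30). That raises the level the *c*35 BaP arrays would have to pass. The share of all genes was not counted, so nothing is read from these counts. They are a description with no test, and the arrays of each line share their DMSO controls with the TCDD comparison.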

How the results depend on the processing

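The number of genes whose response differed ran from 46 to 92 when 1 array was left out (44 to 82 higher, 2 to 10 lower), the highest without *c*35 DMSO replicate 3. It was 111 with array weights (96 higher, 15 lower) and 4 for a test against 1.5-fold (4 higher, 0 lower), namely *Tiparp*, *Tnfaip2*, *Aldh3a1* and *Cyp2s1*. It was 49 without the intensity trend, 63 with median centring, 68 with quantile normalization and 82 with the *Actb* covariate, all of which gave back the 61 genes except the first, which gave 49 of them. The mean of all probe sets gave 59, of which 41 were among the 61. The number with a lower response was 4 for median centring and for the 12 arrays alone, 5 for the filter on dim probe sets and for no minimum change, 6 for quantile normalization and for the mean of all probe sets, and 9 for the *Actb* covariate. Without *c*35 DMSO replicates 1 and 2 together, chosen after seeing the data, 17 genes passed, 16 higher and 1 lower. The *Actb* 3′ minus 5′ difference, a sign of RNA integrity, was 0.73 to 1.38 in wild-type and 0.30 to 0.43 in *c*35 cells, and its part in the differences was not tested beyond that covariate.

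In wild-type cells TCDD changed 89 genes (73 higher, 16 lower). The count was 53 for the mean of all probe sets (48 and 5), 234 with no minimum change (160 and 74) and 6 for a test against 1.5-fold (6 and 0), and 10 were lower with the filter on dim probe sets or with the 12 arrays alone. Leaving out 1 array gave 71 to 224 (61 to 177 higher, 9 to 47 lower), with 224 without wild-type DMSO replicate 2. In *c*35 cells 0 genes were called, 0 also at an adjusted p below 0.1, and 1 without *c*35 DMSO replicate 3 or without replicates 1 and 2 together. Of the named genes, 587 of the refits kept direction and call, 90 lost the call and 7 gained it. *Cyp1a1* lost its call in 16 fits, *Cyp1b1* in 15, *Arrdc3* in 13 and *Ccng2* in 13. The sign turned in 6 fits of genes that were not called, namely *Cyp1a2* (0.05 without wild-type DMSO replicate 1, 0.03 without wild-type TCDD replicate 2, 0.01 without *c*35 DMSO replicate 2, 0.14 without *c*35 TCDD replicate 3 and 0.13 without both *c*35 DMSO arrays) and *Ahrr* (0.0062 without *c*35 TCDD replicate 3). Over all fits without 1 array *Cyp1a2* ran from -0.14 to 0.14 and *Ahrr* from -0.21 to 0.0062. The cause was not tested.

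Deviations of samples with the same replicate number correlated weakly (18 pairs, r from -0.255 to 0.219, 4 of them over 0.1 and 8 below 0). The 4 over 0.1 all joined the same treatment in both lines. They were DMSO replicates 1 (0.167) and 3 (0.138) and TCDD replicates 1 (0.147) and 2 (0.219). The other pairs of that kind, DMSO replicate 2 and TCDD replicate 3, had -0.03 and 0.02. Whether the numbers pair the samples across lines is not settled by these values. With the replicate number as a block 52 genes passed, all among the 61.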
